A study of Homo sapiens with 8 samples.

Results

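The genes described here are 10 genes of the AP-1 group or of the immediate early response. FOS, FOSB and FOSL1 are of the Fos family, and JUN, JUNB and JUND of the Jun family. The others are the ATF family member ATF3, and EGR1, IER2 and IER3. All were chosen by name through their Ensembl IDs and make up 10 of the 60666 gene IDs counted. The study asked which RNAs miR-2355-5p and miR-1271-5p bind, and sequenced what a biotinylated microRNA duplex pulled out of 786-0 cells, a human clear cell renal carcinoma line that lacks a working VHL tumour suppressor. All cells were transfected with a biotinylated duplex and taken after 48 h. The 8 libraries comprised 2 pulldowns with the miR-2355 duplex, 3 with the miR-1271 duplex and 3 with a control duplex. Libraries held 14924700 and 18637410 counted reads with miR-2355, 10358878 to 13119672 with miR-1271 and 4122875 to 22864693 with the control duplex, the shallowest being control replicate 2. The design text speaks of triplicates, and 2 miR-2355 libraries were analysed here. All libraries come from 1 cell line. The labels do not state whether replicates were grown separately, so the spread behind each p-value may be technical in part. The other gene IDs could not be paired with names here, so the labelled renal epithelial origin was not checked against marker genes.

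Immediate early genes are transcribed within minutes of a growth or stress signal, without new protein synthesis. Fos proteins pair with Jun proteins through a leucine zipper to form AP-1, which binds DNA at AP-1 sites, and Jun proteins can also pair with each other and with ATF3. Their mRNAs are short-lived, and many carry AU-rich elements in the 3′ end that speed their decay. In carcinoma cells AP-1 is known for driving genes of growth and invasion. A pulldown value is the share of recovered reads that fell on a gene. More binding to the duplex and more of the RNA in the transfected cells would both raise it, and these cannot be told apart here, since no RNA from before the pulldown was analysed.

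The duplexes are shown because every comparison is between them. The mature RefSeq sequences (GRCh38.p14), 5′ to 3′, have the seed, bases 2 to 8, in capitals. The gene of miR-2355-5p lies on the minus strand of chromosome 2 (mature part at 207110043 to 207110063), that of miR-1271-5p on the plus strand of chromosome 5 (176367960 to 176367981), and that of miR-96-5p on the minus strand of chromosome 7 (129774739 to 129774761).
miR-2355-5p: aUCCCCAGauacaauggacaa
miR-1271-5p: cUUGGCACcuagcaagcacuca
miR-96-5p: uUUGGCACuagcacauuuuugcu
Among the mature microRNAs of RefSeq, 2 had the seed UUGGCAC, miR-1271-5p and miR-96-5p, which is why the third line is given. Only 1 had the seed UCCCCAG, miR-2355-5p itself. The seeds of the 2 transfected microRNAs thus differ, and their perfect matches in an mRNA would read CUGGGGA for miR-2355-5p and GUGCCAA for miR-1271-5p. Transcript sequences were not used here, so these sites were not looked for in the 10 mRNAs.

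The Jun family and EGR1 held the calls among these genes. JUN and EGR1 were higher in both microRNA pulldowns than with the control duplex, JUNB was higher with miR-1271, and JUND was lower with miR-2355. JUNB differed between the microRNAs. FOS, FOSB, FOSL1, ATF3, IER2 and IER3 passed the test in no comparison. All 10 genes passed the filter on low counts and were tested with edgeR's quasi-likelihood test, fitted to all 8 libraries and adjusted over 17351 genes. An adjusted p under 0.05 counted as a call.

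With all 8 libraries the share of calls was near that of genes at large. With miR-2355 against the control duplex 2 of the 10 were higher and 1 was lower, where 12.2% of all tested genes were higher and 17.6% lower, 29.9% in either direction. With miR-1271 against the control duplex 3 were higher and 0 lower by edgeR, where 17.5% and 22.6% of all genes were, 40.1% in either direction. FOSL1 fell there without control replicate 1, as given below, and by DESeq2 the count of lower genes was also 0. For miR-1271 no further gene of the 10 had an unadjusted p under 0.05. Between the pulldowns, miR-2355 against miR-1271, 0 were higher and 1 was lower, against 3.67% and 2.61% of all genes. DESeq2 also gave 0 higher among the 8 genes to which it gave an adjusted p, which leaves out FOS and FOSB. As given below, FOSL1 was called higher and JUND lower in a fit of the 2 microRNA groups alone and without control replicate 1. With all 8 libraries and at an unadjusted p under 0.05, JUND (0.00970), JUN (0.0135) and IER2 (0.0377) were lower as well, and FOSB (0.0498) was higher. The shares over all genes moved with single libraries. For miR-2355 against control 13.4% of genes were called without miR-2355 replicate 1, where JUND and JUN lost their calls too. Between the pulldowns leaving out any 1 microRNA library gave 1.39% to 4.02%, the lowest without miR-2355 replicate 2, and leaving out control replicate 1 gave 10.7%. The 10 genes had a median log2 fold change of 0.23 for miR-2355, 0.16 for miR-1271 and -0.09 between them, beside medians of -0.00, 0.01 and -0.01 over all tested genes. A change of at least 2-fold was fitted for 1, 1 and 2 of the 10 in these comparisons, in the same order, and for 11.6%, 14.5% and 4.83% of all genes. Both contrasts with the control use the same 3 control libraries, so a gene moving alike in both is in part a statement about those libraries. The balance of directions over all genes depended on the scaling. For miR-2355 it was 2124 higher and 3059 lower genes with TMM but 2839 and 2626 with upper-quartile factors. For miR-1271 it was 3041 and 3920 with TMM, 3976 and 3328 with upper-quartile factors and 1868 and 4894 with library totals alone. Between the pulldowns it was 637 and 453 with TMM and 1282 and 261 with library totals alone.

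**Figure D1:**
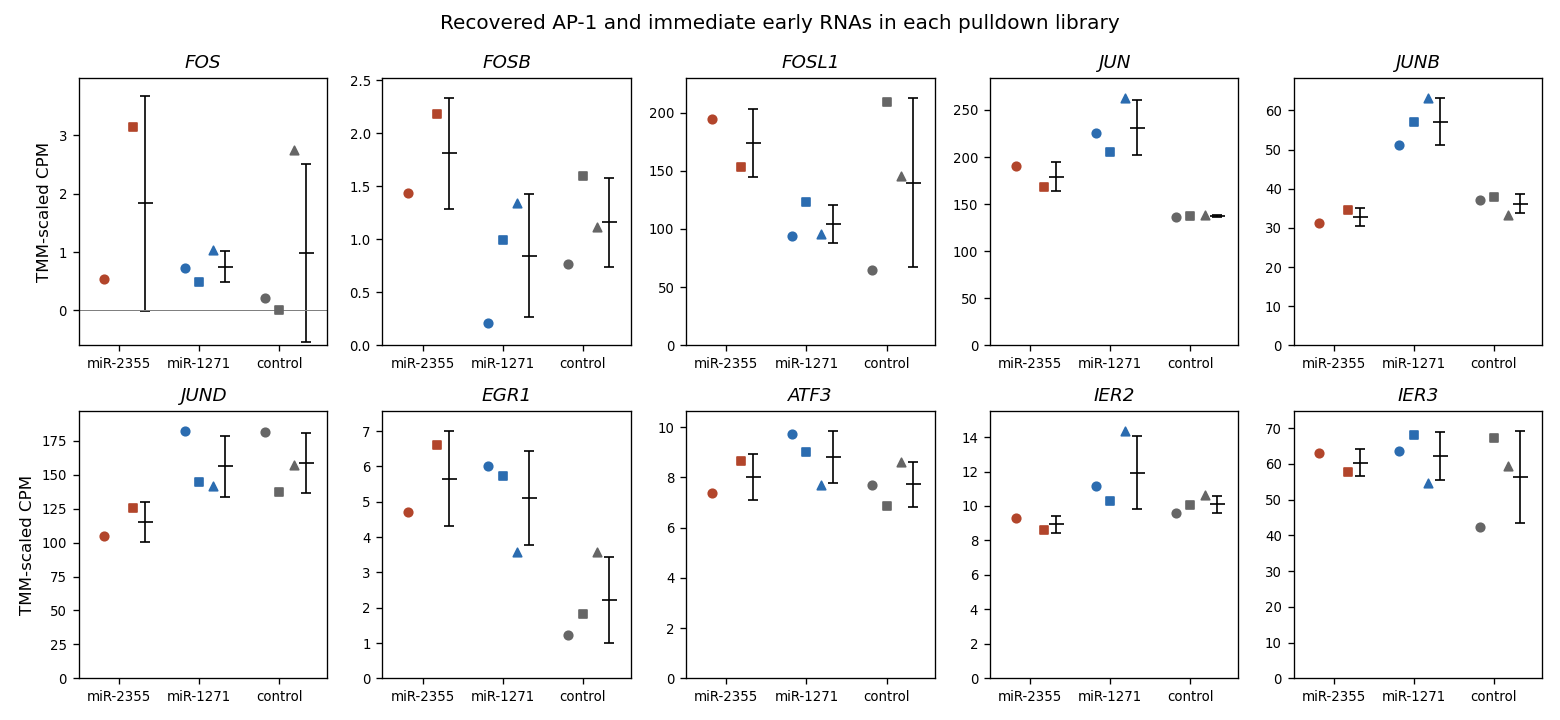
TMM-scaled CPM (vertical axis, linear) of the 10 genes in each library; circles, squares and triangles are replicates 1, 2 and 3, and the bar beside each group gives its mean ± SD (n = 2 for miR-2355, n = 3 for miR-1271 and for control). All microRNA libraries lie above the controls for JUN, and the 3 miR-1271 libraries lie above all others for JUNB, while FOS and FOSL1 differ widely between libraries of one group.

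JUN (ENSG00000177606) encodes c-Jun, the principal partner of Fos proteins, and its single-exon gene lies on chromosome 1 (58780791 to 58784047, RefSeq, GRCh38.p14). It was recovered at 190.0 and 169 CPM (reads as a share of the library, scaled by TMM) in the miR-2355 libraries, at 226, 206 and 262 CPM in the miR-1271 libraries, and at 136, 137 and 139 CPM in the control libraries. The controls were nearly equal, and all 5 microRNA libraries stood above them, with the miR-1271 libraries highest. Groups with no overlap in this direction were common: 24.9% of all tested genes lay above the controls in both miR-2355 libraries, and 23.1% did so in all miR-1271 libraries. With miR-1271 the mean was 231 ± 28.9 CPM against 137 ± 1.34 CPM with the control duplex (SD, n = 3 each), or 0.75 ± 0.12 on the log2 scale (SE; edgeR adjusted p = 7.62e-05). With miR-2355 it was 179 ± 15.2 CPM (SD, n = 2), or 0.38 ± 0.13 over control on the log2 scale (SE; edgeR adjusted p = 0.0351).

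The call of JUN with miR-1271 held under all 16 alternatives run. With miR-2355 the rise kept its direction in all 16, but the call ended under 5 of them. Without miR-2355 replicate 1 the log2 fold change was 0.32 (edgeR adjusted p = 0.246) and without replicate 2 it was 0.47 (0.0534). It was 0.38 without control replicate 2 (0.0513), 0.39 without control replicate 3 (0.082) and 0.36 with library totals alone (0.0622). The lower value with miR-2355 than with miR-1271 was not past the threshold, at -0.37 ± 0.13 on the log2 scale (SE; edgeR adjusted p = 0.109). Both miR-2355 libraries lay below all miR-1271 libraries, as they did for 20.5% of all tested genes.

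JUNB (ENSG00000171223), a Jun protein known as a weaker activator than c-Jun that can restrain it, separated the 2 microRNA pulldowns more clearly than the other members did. Its gene, also a single exon, lies on chromosome 19 (12791486 to 12793315). JUNB was recovered at 31.2 and 34.5 CPM with miR-2355, at 51.2, 57.0 and 63.1 CPM with miR-1271, and at 37.2, 37.9 and 33.4 CPM with the control duplex. These values rest on 584 and 538 reads with miR-2355, on 495, 576 and 797 reads with miR-1271, and on 876, 166 and 716 reads with the control duplex. The 3 miR-1271 libraries stood above all others, as they stood above the controls for 23.1% of all tested genes. The miR-2355 libraries overlapped the controls. JUNB rose by 0.67 ± 0.12 on the log2 scale with miR-1271 (SE; edgeR adjusted p = 0.000263). With miR-2355 it was -0.13 ± 0.14 (SE; edgeR adjusted p = 0.5), which did not pass.

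The difference itself was tested in the direct comparison. JUNB was lower with miR-2355 than with miR-1271, at 32.8 ± 2.34 CPM (SD, n = 2) and 57.1 ± 5.97 CPM (SD, n = 3), -0.80 ± 0.14 on the log2 scale (SE; edgeR adjusted p = 0.00165). Calls were rarer in this comparison than against the control, at 6.28% of all tested genes in either direction, and JUNB was the 1 call among the 10. It passed under all 16 alternatives, with log2 differences from -0.87 to -0.67 and edgeR or DESeq2 adjusted p from 3.37e-05 to 0.0365. The RefSeq span of HOOK2 overlaps that of JUNB. The strand setting of the counting is not given in the sources used here, so the part of reads from HOOK2 in the JUNB count was not tested.

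JUND (ENSG00000130522) encodes the Jun protein that is least dependent on stimulation and is present in resting cells. Its single-exon gene lies on chromosome 19 (18279694 to 18281622). JUND was recovered at 105 and 126 CPM with miR-2355, at 182, 145 and 142 CPM with miR-1271, and at 182, 138 and 157 CPM with the control duplex. Both miR-2355 libraries lay below all others, as they lay below the controls for 27.8% of all tested genes, and the miR-1271 and control libraries overlapped. With miR-2355 JUND fell by 0.47 ± 0.15 on the log2 scale against the control duplex (SE; edgeR adjusted p = 0.0257). With miR-1271 the log2 fold change was -0.03 ± 0.13 (SE; edgeR adjusted p = 0.877).

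The fall of JUND kept its direction in all 16 alternatives, but its call ended under 6 of them and depended on single libraries. Without miR-2355 replicate 1 it was -0.32 (edgeR adjusted p = 0.316), without control replicate 1 it was -0.36 (0.0665) and without control replicate 3 it was -0.48 (0.0553). It also missed the threshold with upper-quartile factors, at -0.39 (0.0624), and in a fit of these 2 groups alone, at -0.44 (0.0562). With a replicate block it was -0.49 and just missed the threshold (edgeR adjusted p = 0.0505). The direct difference from miR-1271, -0.44 ± 0.15 on the log2 scale (SE), did not pass (edgeR adjusted p = 0.0913). It passed in a fit of the 2 microRNA groups alone (0.0315) and without control replicate 1 (0.0395), each at -0.44. For miR-1271 against control the sign of JUND was positive with upper-quartile factors (0.07) and without miR-1271 replicate 2 (0.03) or 3 (0.05) or control replicate 1 (0.07), none past the threshold.

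**Figure D2:**
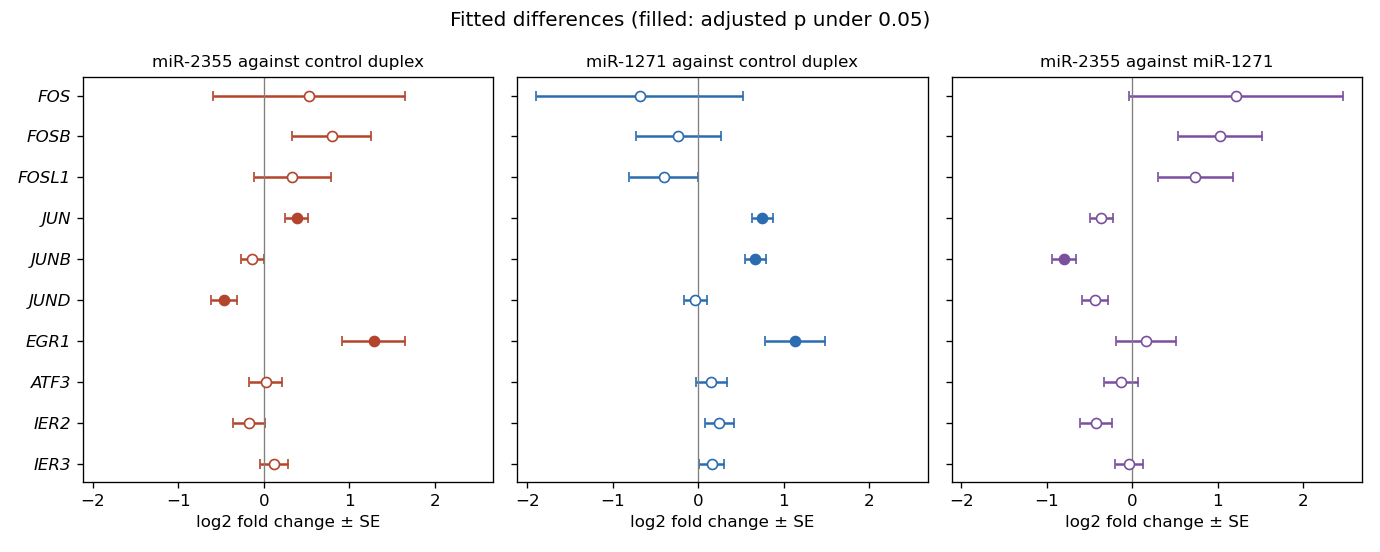
Fitted log2 fold change ± SE (horizontal axis) of each gene in the 3 comparisons; filled points have an edgeR adjusted p under 0.05. JUN and EGR1 are filled on the right in both comparisons with the control duplex, JUNB is filled at 0.67 with miR-1271 and at -0.80 between the microRNAs, and FOS has the widest error.

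Ratios of raw reads within a library do not depend on how libraries are scaled. They were computed after the values above had been seen. They are given without a test and without a share over other pairs of genes, which was not computed. The ratio of JUN to JUND reads was 1.81 and 1.34 with miR-2355, 1.24, 1.42 and 1.85 in the miR-1271 libraries, and 0.750, 0.997 and 0.883 with the control duplex. This ratio was higher in all 5 microRNA libraries than in any of the 3 control libraries. For miR-2355 this had to follow, since JUN lay above and JUND below all control libraries. The spans of the genes differ (3257 bases for JUN, 1929 for JUND), so a ratio of 1 does not mark equal levels. The ratio of JUNB to JUN reads was 0.164 and 0.205 with miR-2355, 0.227, 0.277 and 0.241 in the miR-1271 libraries, and 0.273, 0.276 and 0.240 with the control duplex. It was lowest in the miR-2355 libraries and overlapped between miR-1271 and control. The ratio of JUNB to JUND reads was 0.298 and 0.274 with miR-2355, 0.281, 0.395 and 0.446 in the miR-1271 libraries, and 0.205, 0.275 and 0.212 with the control duplex. The miR-2355 libraries overlapped both other groups in it. For FOSL1 to JUND, not drawn, the ratio was 1.86 and 1.22 with miR-2355 and 0.515, 0.853 and 0.677 with miR-1271. With the control duplex it was 0.356, 1.52 and 0.925, which overlapped both microRNA groups.

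**Figure D3:**
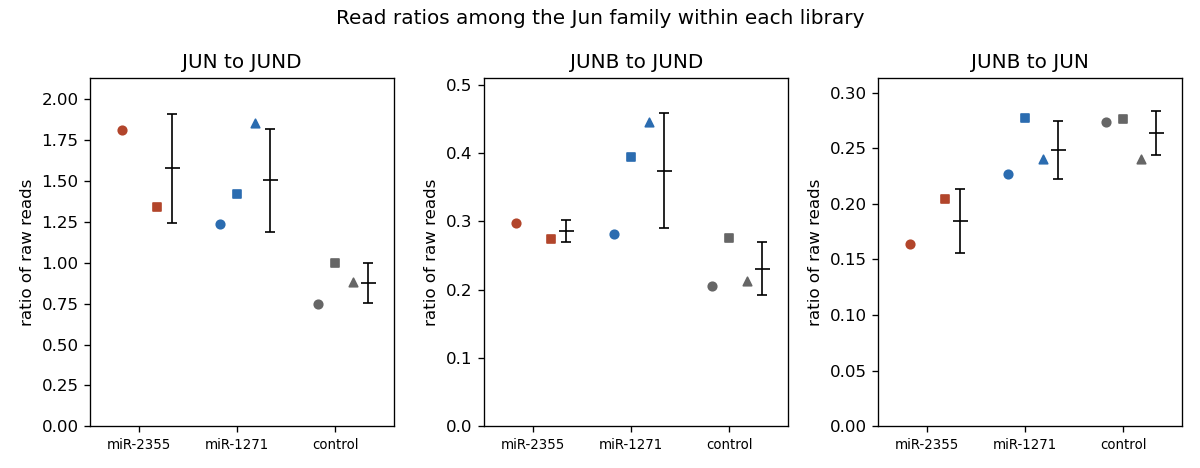
Ratio of raw reads of JUN to JUND, JUNB to JUND and JUNB to JUN (vertical axes, from 0) within each library, by group; circles, squares and triangles are replicates 1, 2 and 3, and bars give mean ± SD (n = 2 for miR-2355, n = 3 for miR-1271 and for control). The 5 microRNA libraries lie above the 3 control libraries for JUN to JUND, a ratio computed after the levels of both genes had been seen.

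EGR1 (ENSG00000120738), a zinc finger transcription factor induced through serum response factor, had the largest fitted rise of the 10 in both comparisons with the control. Its gene lies on chromosome 5 (138465479 to 138469303). Reads were few, 88 and 103 with miR-2355, 58, 58 and 45 in the miR-1271 libraries, and 29, 8 and 77 with the control duplex. These correspond to 4.70 and 6.60 CPM with miR-2355, 6.0, 5.74 and 3.57 CPM with miR-1271, and 1.23, 1.83 and 3.59 CPM with the control duplex. Both miR-2355 libraries stood above the controls, as they did for 24.9% of all tested genes. Replicate 3 of miR-1271 lay just under control replicate 3, so the miR-1271 and control groups overlapped.

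EGR1 rose by a log2 value of 1.29 ± 0.37 over control with miR-2355 (SE; edgeR adjusted p = 0.0157) and of 1.13 ± 0.35 with miR-1271 (SE; edgeR adjusted p = 0.0194). The pulldowns were not shown to differ in it, at 0.16 ± 0.35 on the log2 scale (SE; edgeR adjusted p = 0.84). The sign of that difference turned when miR-2355 replicate 2 (-0.10) or miR-1271 replicate 3 (-0.05) was left out. Single libraries moved the size of both rises. Leaving out control replicate 3 gave 2.03 for miR-2355 and 1.87 for miR-1271. Leaving out control replicate 1 gave 0.86 for miR-2355 and 0.71 for miR-1271, the second no longer called (edgeR adjusted p = 0.0753). The call with miR-2355 also ended without its replicate 2, at 1.03 (0.116), and the call with miR-1271 without its replicate 1, at 1.01 (0.076), or 2, at 1.04 (0.0729). The direction was upward under all 16 alternatives for both.

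**Figure D4:**
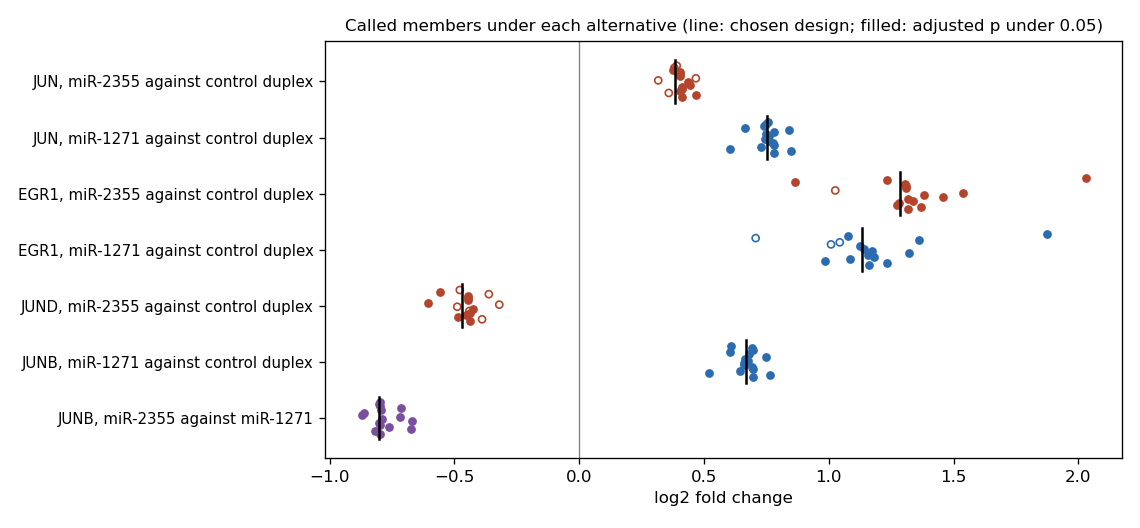
Log2 fold change (horizontal axis) of each called gene and comparison under the 16 alternatives (points, filled where the adjusted p was under 0.05) and under the chosen design (black line). JUN and JUNB with miR-1271, and JUNB between the microRNAs, are filled throughout, whereas JUN and JUND with miR-2355 and EGR1 in both have open points, all on the same side of 0.

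No Fos family member passed the test with all 8 libraries, and of the 10 genes FOS had the widest spread within groups. FOS (ENSG00000170345) encodes c-Fos, and its gene lies on chromosome 14 (75278828 to 75282230). It had 10 and 49 reads with miR-2355, 7, 5 and 13 in the miR-1271 libraries, and 5, 0 and 59 with the control duplex. The count of 0 in control replicate 2 allows up to 0.684 CPM (3 reads), counting error only. On the CPM scale this was 0.534 and 3.14 with miR-2355, 0.724, 0.495 and 1.03 in the miR-1271 libraries, and 0.212, 0 and 2.75 with the control duplex. A single miR-2355 library and a single control library stood high, and the others of both groups were low. Its log2 fold change was 0.53 ± 1.12 with miR-2355 (SE; edgeR adjusted p = 0.771) and -0.68 ± 1.21 with miR-1271 (SE; edgeR adjusted p = 0.695). Control replicate 3 alone decided the sign for miR-1271. Without it the log2 fold changes were 3.30 with miR-2355 (edgeR adjusted p = 0.0191) and 2.08 with miR-1271 (0.133). Without miR-2355 replicate 2 the value with miR-2355 was -1.19, and without control replicate 1 it was -0.11. The direct difference of 1.22 ± 1.25 (SE; edgeR adjusted p = 0.629) was -0.51 without miR-2355 replicate 2. No direction for FOS could be read from these libraries.

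FOSL1 (ENSG00000175592) encodes Fra-1, a Fos protein without a transactivation domain that is stable in many carcinoma cells. Its gene lies on chromosome 11 (65892049 to 65900545). Unlike FOS it was well covered, with 906 to 3640 reads per library. FOSL1 was recovered at 194 and 153 CPM with miR-2355, at 93.7, 123 and 95.8 CPM with miR-1271, and at 64.7, 209 and 145 CPM with the control duplex. The controls spanned both microRNA groups, while both miR-2355 libraries stood above all miR-1271 libraries. The log2 fold change over control was 0.34 ± 0.45 with miR-2355 (SE; edgeR adjusted p = 0.628) and -0.40 ± 0.41 with miR-1271 (SE; edgeR adjusted p = 0.479). The direct difference was 0.74 ± 0.44 (SE; edgeR adjusted p = 0.383), and 21.1% of the tested genes likewise stood higher in both miR-2355 libraries than in any with miR-1271.

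Single control libraries moved the values against control in both directions, but not the size of the direct difference. Without control replicate 1, where it was lowest, FOSL1 fell with miR-1271, by 0.76 on the log2 scale (edgeR adjusted p = 0.00178), the direct difference passed at 0.74 (0.00953), and the value with miR-2355 was -0.02. Without control replicate 2, where it was highest, the log2 fold changes were 0.73 with miR-2355 and -0.01 with miR-1271, neither called, and the direct difference of 0.74 did not pass (edgeR adjusted p = 0.307). In a fit of the 2 microRNA groups alone, which uses no control library, the direct difference was 0.74 and passed (edgeR adjusted p = 0.00091). Its SE was 0.13 in that fit and 0.44 with all 8 libraries. Without control replicate 1, 2 or 3 the SE was 0.16, 0.37 and 0.49.

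FOSB (ENSG00000125740), a Fos protein that also exists as the truncated ΔFosB, had as few reads as FOS. Its gene lies on chromosome 19 (45467996 to 45475179). It had 27 and 34 reads with miR-2355, 2, 10 and 17 in the miR-1271 libraries, and 18, 7 and 24 with the control duplex. These are 1.44 and 2.18 CPM with miR-2355, 0.207, 0.990 and 1.35 CPM with miR-1271, and 0.765, 1.60 and 1.12 CPM with the control duplex. Both miR-2355 libraries lay above all miR-1271 libraries, as they did for 21.1% of all tested genes, and overlapped the controls. For FOSB the log2 fold change was 0.79 ± 0.46 with miR-2355 (SE; edgeR adjusted p = 0.213) and -0.23 ± 0.49 with miR-1271 (SE; edgeR adjusted p = 0.741), and the value with miR-1271 was 0.20 without its replicate 1, which held 2 reads. The direct difference was 1.02 ± 0.49 (SE; edgeR adjusted p = 0.222).

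ATF3 (ENSG00000162772), a stress-induced repressor and activator that pairs with Jun proteins, differed little between the groups. Its gene lies on chromosome 1 (212565407 to 212620777). ATF3 stood at 7.37 and 8.66 CPM with miR-2355, at 9.72, 9.01 and 7.69 CPM with miR-1271, and at 7.69, 6.84 and 8.62 CPM with the control duplex, from 30 to 185 reads per library. All groups overlapped. For ATF3 the log2 fold change was 0.02 ± 0.20 with miR-2355 (SE; edgeR adjusted p = 0.95) and 0.16 ± 0.18 with miR-1271 (SE; edgeR adjusted p = 0.52), and the direct difference -0.13 ± 0.20 (SE; edgeR adjusted p = 0.74). On leaving out 1 library the value with miR-2355 lay between -0.10 and 0.16, the lowest without miR-2355 replicate 2. It was also below 0 without control replicate 1 (-0.0037) or 2 (-0.03).

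IER2 (ENSG00000160888), a nuclear protein induced by growth factors and linked to cell movement, had lower values with miR-2355 than with either other duplex, none past the threshold. Its gene lies on chromosome 19 (13150411 to 13154911). IER2 stood at 9.29 and 8.59 CPM with miR-2355, at 11.2, 10.3 and 14.3 CPM with miR-1271, and at 9.60, 10.04 and 10.6 CPM with the control duplex. Both miR-2355 libraries lay below all others, by a small margin against the controls, and 27.8% of all tested genes likewise lay below the controls. The log2 fold change was -0.17 ± 0.19 with miR-2355 (SE; edgeR adjusted p = 0.528) and 0.25 ± 0.17 with miR-1271 (SE; edgeR adjusted p = 0.262). The direct difference was -0.42 ± 0.19 (SE; edgeR adjusted p = 0.19), and 20.5% of the tested genes likewise stood lower in both miR-2355 libraries than in any with miR-1271.

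IER3 (ENSG00000137331), a stress-induced protein that modulates cell survival, lies on chromosome 6 (30743199 to 30744547). IER3 stood at 62.9 and 57.6 CPM with miR-2355, at 63.5, 67.9 and 54.8 CPM with miR-1271, and at 42.3, 67.3 and 59.4 CPM with the control duplex. Control replicate 1 was lowest, as for FOSL1, and all groups overlapped. The log2 fold change was 0.12 ± 0.16 with miR-2355 (SE; edgeR adjusted p = 0.63) and 0.16 ± 0.15 with miR-1271 (SE; edgeR adjusted p = 0.416), and these were -0.06 and -0.02 without control replicate 1. The direct difference was -0.04 ± 0.16 (SE; edgeR adjusted p = 0.916). It was above 0 without miR-2355 replicate 2 (0.02) or miR-1271 replicate 2 (0.04) and with library totals alone (0.09). The span of the lncRNA gene IER3-AS1 overlaps that of IER3, and its part in the count was not tested.

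The genes differed in how well their libraries repeated. The within-group SD of log2(CPM + 0.5) over the 8 libraries was 0.12 for JUNB, 0.13 for JUN, 0.16 for ATF3, 0.16 for IER2, 0.20 for JUND and 0.24 for IER3. It was 0.49 for EGR1, 0.54 for FOSB, 0.57 for FOSL1 and 1.09 for FOS, beside a median of 0.21 over all 17351 tested genes. For EGR1, FOSB and FOS, with at most 103 reads in any library, counting error is part of this. For FOSL1, with at least 906 reads, counting error is small. In terms of non-overlapping groups, 4 of the 10 genes were without overlap between miR-2355 and control (52.7% of all genes), 2 between miR-1271 and control (49.9%) and 6 between miR-2355 and miR-1271 (41.5%).

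Promoter letters are shown for the 2 members whose RefSeq promoter held one of the motifs searched. Promoters from 250 bases before to 50 after a gene's start were given for 8 of the 10 genes (9 promoters, 2 of them of ATF3), without FOSL1 and IER3. Both strands were searched for the cAMP response element TGACGTCA, the AP-1 site TGACTCA, the EGR site GCGTGGGCG and the serum-response CArG box. Only full matches within these promoters were counted. Sites with a variant letter or outside this stretch were not looked for, so a gene without a match may still have one. The cAMP response element was in 1 of the 9 promoters, that of JUND, and in 1.85% of 35116 promoters of the same length. The CArG box was in 1, that of EGR1, with 2 matches that do not overlap, and in 1.29% of all. The AP-1 site and the EGR site were in 0 of the 9, and in 4.95% and 0.795% of all promoters. The JUND stretch is chr19:18281790-18281847 and the EGR1 stretch chr5:138465349-138465430 (GRCh38.p14), each written 5′ to 3′ on the gene's strand, minus for JUND and plus for EGR1, with the matches in capitals.
JUND: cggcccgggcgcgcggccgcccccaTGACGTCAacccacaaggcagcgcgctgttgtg
EGR1: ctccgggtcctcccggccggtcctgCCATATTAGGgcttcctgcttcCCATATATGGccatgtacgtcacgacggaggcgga
The JUND match starts 200 bases before the start site, and the EGR1 matches start 105 and 83 bases before it. JUND was lower with miR-2355 and EGR1 higher with both microRNAs. Whether these motifs bear on those values was not tested.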

How the data were processed

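RNA recovered with biotinylated duplexes from 8 libraries of 786-0 cells was measured as raw read counts per Ensembl gene ID, deposited by the authors without normalization. The submitters' processing notes name the aligner BWA, the counter featureCounts and the builds GRCh38 and hg38. Versions, annotation release, strand setting and multi-mapping rule were not stated there. An aligner that is not splice-aware can lose reads over exon junctions, in every library, and levels are not compared between genes.

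Members are named from the gene rule by ID; 10 of 10 symbols were found in RefSeq (GRCh38.p14), but 0 IDs of the count table matched it. The planned lists of other AP-1 partners, immediate early genes, upstream kinases, AP-1 targets and cell type markers, the genes most like a member and the protein comparison were therefore not run. The rule for named genes was all 10 members. Members and lists were chosen with earlier results of these data known.

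With edgeR 4.0.16 in R 4.3.3, filterByExpr kept 17351 genes (99.78% to 99.82% of reads), libraries were scaled by TMM, and a robust quasi-likelihood fit took all 8 libraries, with a mean for each group. P-values were adjusted by Benjamini-Hochberg over all genes. SE is the log2 fold change over the square root of F, an approximation. Replicates of a group differed by more than counting noise (chi-square per degree of freedom 6.21 to 21.9), so none was a duplicate deposit. The procedure was run on simulated counts in which a small share of the tested genes was changed, up or down at random. Far more genes were called against control in these data, so that run cannot judge the scaling or the calls here. Alternatives were RLE, upper-quartile and no scaling factors, no filter, DESeq2 1.42.0, the 2 groups alone, equal depth, a replicate block, and each library left out. Reads carried no molecular identifiers, so the floor for a count of 0 covers counting error only.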

Additional observations from a re-analysis of the deposited data

Results flagged for a closer look

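JUNB was set aside for a closer look because its recovery differed between the 2 microRNA pulldowns by a test of the difference itself. The log2 difference, miR-2355 minus miR-1271, was -0.80 (edgeR adjusted p = 0.00165). Both miR-2355 libraries, at 31.2 and 34.5 CPM, lay below all 3 miR-1271 libraries, at 51.2 to 63.1 CPM. Of all tested genes 20.5% were likewise without overlap in this direction. No group had 4 libraries, so no library was tested as an outlier.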

How the results depend on the processing

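Over 16 alternatives (8 that leave out 1 library and 8 others) no called log2 fold change changed sign. Of 474 values of single genes with an adjusted p, 433 kept direction and side of the threshold, 15 lost the call, 6 gained it and 20 changed sign, all uncalled. For miR-2355 against control, higher members numbered 0 to 2 on leaving out 1 library and 1 with library totals alone; lower members numbered 0 to 1 on leaving out 1 library and 0 with upper-quartile factors, with the 2 groups alone and with the replicate block. For miR-1271 against control, higher members numbered 2 to 3 and lower members 0 to 1 on leaving out 1 library. Between the pulldowns, higher members numbered 0 to 1 and lower members 1 to 2 on leaving out 1 library, and 1 and 2 with the 2 groups alone. With the replicate block JUND was at -0.49 with miR-2355 (edgeR adjusted p = 0.0505), and no other call of a member changed; same-numbered libraries did not deviate together (correlations -0.10 to 0.02), so the numbers were not taken as pairs. Leaving out 1 library gave -1.19 to 3.30 for FOS, -0.020 to 0.73 for FOSL1, -0.10 to 0.16 for ATF3 and -0.063 to 0.24 for IER3 with miR-2355; -1.33 to 2.08 for FOS, -0.75 to 0.20 for FOSB, -0.14 to 0.075 for JUND and -0.023 to 0.28 for IER3 with miR-1271; and -0.51 to 2.04 for FOS, -0.10 to 0.40 for EGR1 and -0.12 to 0.038 for IER3 between the pulldowns. JUND with miR-1271 was 0.066 with upper-quartile factors, and IER3 between the pulldowns 0.086 with library totals alone. That scaling moved the median of all genes to -0.14 for miR-1271 and 0.12 between the pulldowns. Over all genes, those higher and lower with miR-2355 than with miR-1271 (637 and 453) numbered 317 and 198 with the replicate block, 1040 and 973 with the 2 groups alone, 394 and 291 at equal depth, and 171 to 972 and 79 to 836 on leaving out 1 library. Against control, miR-2355 calls (2124 and 3059) ran from 799 to 2244 and 1603 to 3030 on leaving out 1 library, the lowest without its replicate 1. FOSB was not tested at equal depth, nor FOS for miR-1271 with the 2 groups alone, having too few reads; DESeq2 gave FOS and FOSB no adjusted p between the pulldowns. The causes were not tested. A fit without 1 miR-2355 library assumes that the other varies like the other groups. FOS, FOSB and EGR1 rest on at most 103 reads in a library.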
